A study of Mus musculus with 3 samples.

Results

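CD8a-tag-high dendritic cells with little Tnfsf4 were described here in 1 pool of sorted migratory dendritic cells from the ear-draining lymph nodes of mice. The cells were chosen by their antibody tags and 2 groups of transcripts. A member had a CD8a tag of at least 120 unique molecular identifiers (UMIs, counts of captured molecules), a CD172a tag of at least 30 and a CD11b tag below 150. It also had fewer than 5 UMIs of Tnfsf4, the gene of the T cell costimulatory ligand OX40L, and fewer than 5 of C1qa, C1qb and C1qc, which macrophages express. Of 6079 barcodes, 5380 had at least 80% of their hashtag UMIs in 1 hashtag, and 5019 were kept after limits on genes, UMIs and mitochondrial UMIs. The rule then found 793 members, 15.8% of the kept cells.

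All cells came from mice given MC903 (calcipotriol, a vitamin D analogue used to provoke atopic-like skin inflammation) on days 0, 2 and 4, and were sorted on day 5. Every mouse was SiglechiCreTg/0 ROSA26LoxP-STOP-LoxP-RFP Tnfsf4KI/+, so RFP marks cells in whose history the Siglech-driven Cre acted, and BFP reports the Tnfsf4 knock-in carried on 1 allele. The gate was B220-, MHCII high, CD11c low to intermediate, XCR1- and CD326-, and was meant to leave out both Langerhans cells and the type 1 conventional subset (cDC1). The sort gave 4 populations that each received a hashtag before pooling: 5200 BFP+RFP+ cells, 5200 BFP-RFP+ cells, 10400 BFP+RFP- cells and 5200 BFP-RFP- cells. Where values of the populations are given in a row below, they follow this order. Untreated mice and further pools were not analysed here, and the number of mice is not given in the sources used here. Each population is therefore 1 sample: no test was made, no p-value is given, and every interval is an exact 95% interval that covers counting error only.

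Dendritic cells take up antigen in the skin, move to the draining lymph node with the chemokine receptor CCR7, and present peptides on MHC class II to CD4 T cells. CD8a on mouse dendritic cells is best known from the cDC1 of lymphoid organs, which also carry XCR1 and CLEC9A, and from some plasmacytoid dendritic cells. CD172a, encoded by Sirpa, and CD11b, encoded by Itgam, are classical surface proteins of type 2 conventional dendritic cells (cDC2). CD301b, encoded by Mgl2, marks a group of dermal cDC2.

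The choice rests on the oligonucleotides that the antibodies carried, and on the hashtags that tell the populations apart. They are shown 5′ to 3′ because the reads of these barcodes are the measurement that defines the members. All have 15 bases, and capitals mark the bases that differ from the nearest of the other 7 tags at the same position.
CD8a: TAccCGTaAtaGCGT
CD172a: GaTTcCCtTGtAGcA
CD11b: TgAAgGCTCATttGT
CD301b: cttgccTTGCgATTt
BFP+RFP+ hashtag: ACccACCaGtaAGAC
BFP-RFP+ hashtag: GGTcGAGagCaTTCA
BFP+RFP- hashtag: cttgccGCATgTCAt
BFP-RFP- hashtag: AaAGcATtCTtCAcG
The CD8a barcode differed from its nearest neighbour, the BFP+RFP+ hashtag, at 10 bases. The closest pair was CD301b and the BFP+RFP- hashtag, which shared their first bases and differed at 7.

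The members had a median CD8a tag of 223 UMIs, against 41 in the other 4226 kept cells, as the rule requires. Their median CD172a tag was 84, against 94 in the other kept cells. The median CD11b tag was 35 in members and 44 in other kept cells, and the CD301b tag, which the rule did not use, had a median of 32 in both. Members were somewhat deeper, with a median of 16447 mRNA UMIs and 3383 genes, against 14188 UMIs and 3162 genes in other kept cells. The part of this depth in the results was not tested beyond thinning each cell to the same number of UMIs. In all, 14170758 mRNA UMIs stood behind the members and 66173728 behind the other kept cells. Cells with more than 2 times the median UMIs made up 7.82% of members and 6.72% of other kept cells.

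The share of cells that met the rule differed between the populations. It was 26.0% (23.1 to 29.1) of 841 BFP+RFP+ cells, 19.8% (17.3 to 22.4) of 982 BFP-RFP+ cells, 12.5% (11.1 to 14.0) of 2184 BFP+RFP- cells and 10.6% (8.75 to 12.6) of 1012 BFP-RFP- cells. Both RFP+ populations lay above both RFP- populations, and the intervals of BFP+RFP- and BFP-RFP- cells overlapped. The members numbered 219, 194, 273 and 107. Because the rule limits Tnfsf4, the gene BFP reports, it removed more BFP+ than BFP- cells. Without that limit the shares were 37.3%, 22.1%, 15.4% and 11.1%.

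**Figure D1:**
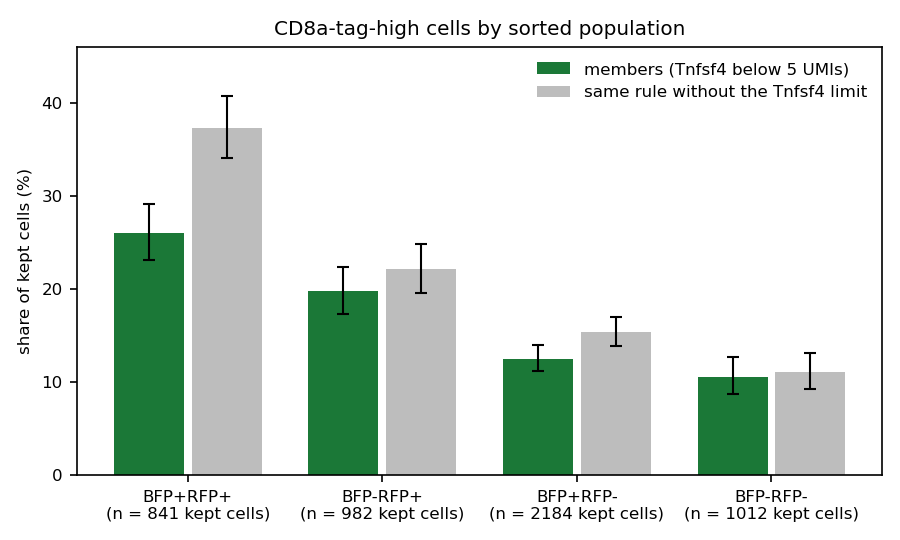
Share of kept cells (%) in each sorted population that met the whole rule (green) or the rule without the Tnfsf4 limit (grey), with exact 95% binomial intervals. The members run from 26.0% of BFP+RFP+ cells to 10.6% of BFP-RFP- cells, and both RFP+ populations lie above both RFP- populations.

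The CD8a tag itself, over all kept cells, followed the same order. Its median was 121 UMIs in BFP+RFP+, 63 in BFP-RFP+, 42 in BFP+RFP- and 40 in BFP-RFP- cells. A tag of at least 120 was found in 50.3%, 32.3%, 22.1% and 17.1% of them. Among members, the tag differed less between the populations, with medians of 241, 218.5, 230 and 205.

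The 5 genes given with the rule as markers were all higher in members than in other kept cells when the populations were pooled. They had been picked on these cells, so their values describe the members and support nothing. Levels are UMIs per 1000000 mRNA UMIs (CPM) of the summed cells, and differences are log2 ratios of these sums. Dkk2, a secreted antagonist of Wnt signalling, had 200.3 CPM in members and 123 in other kept cells, a log2 ratio of 0.71 (0.65 to 0.77). Tubb2b, a beta-tubulin known from neurons, had 240.2 CPM against 129, a log2 ratio of 0.90. Both were also the most widely detected of the 5 in members. With each cell thinned to 5000 UMIs, Tubb2b was seen in 45.9% of members and 25.8% of other kept cells, and Dkk2 in 31.5% and 17.0%. Thinning left out 19 members and 355 other kept cells that were shallower.

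Mdk, Myl7 and Mgll were rarer transcripts. Mdk, the heparin-binding growth factor midkine, had 24.1 CPM in members and 10.8 in other kept cells, a log2 ratio of 1.17. Myl7, the regulatory myosin light chain of the atrium, had 44.6 CPM against 20.6, a log2 ratio of 1.12. Mgll, monoglyceride lipase, which breaks down the endocannabinoid 2-arachidonoylglycerol, had 22.7 CPM against 14.7, a log2 ratio of 0.63. Per cell these genes marked only part of the members. At 5000 UMIs, 65.2% of members had a UMI of at least 1 of the 5 genes and 30.4% of at least 2, against 39.5% and 12.5% of other kept cells. In T and NK-like barcodes, which should lack them, 17.2% had at least 1, and their median depth was 9445 UMIs before thinning.

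The markers varied with the reporters within the members. In the order of the 4 populations, Dkk2 had 263, 160.5, 219.5 and 104 CPM in members. Myl7 had 107, 26.1, 25.0 and 9.77 CPM, and Mdk 45.0, 21.9, 14.7 and 12.3. BFP+RFP+ members were highest for these 3 genes and BFP-RFP- members lowest. Within each population the log2 ratio of members over other kept cells was smaller for Dkk2 in RFP+ cells, at 0.28 and 0.33 with and without BFP, than in RFP- cells, at 0.95 and 0.77. Myl7 differed little in BFP-RFP+ cells, at 0.14, and Mgll was slightly lower in BFP+RFP+ members, at -0.14. Averaged over the 4 populations, the log2 ratios of Dkk2, Mdk, Myl7, Tubb2b and Mgll were 0.58, 0.95, 0.91, 0.67 and 0.66.

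The threshold on the CD8a tag did not coincide with a step in these genes. In the 58 cells with a CD8a tag from 120 to below 130 that met the rest of the rule, Dkk2 had 122 CPM, Tubb2b 154, Mdk 6.24, Myl7 15.6 and Mgll 26.0. In the 70 cells just outside, from 110 to below 120, the values were 192, 253, 14.6, 23.8 and 29.3 in the same order. All 5 values were lower just inside the threshold than just outside it. Few UMIs stood behind Mdk (6 inside, 16 outside), Myl7 (15 and 26) and Mgll (25 and 32), and no interval was computed here.

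Over the whole range of the tag, among cells that met the rest of the rule, Cd8a mRNA went with the CD8a tag. The tag was cut into 5 bands that start at 0, 30, 60, 120 and 240 UMIs and hold 660, 856, 570, 435 and 358 cells. Cd8a had 1.51, 6.52, 15.5, 27.2 and 82.4 CPM from the lowest band to the highest. Without cells holding 5 or more UMIs of T and NK or of B cell genes, the levels were 1.41, 6.17, 15.6, 27.4 and 82.3 CPM. Cd8b1, the CD8 beta chain of T cells, stayed between 1.16 and 2.09 CPM in the bands without those cells.

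Several genes ran in the same direction as the tag in every band. H2-DMa, a chain of the DM complex that loads peptides onto MHC class II, had 165, 176, 277, 316 and 461 CPM from the lowest band to the highest. Icosl, the costimulatory ligand of ICOS, had 37.4, 52.9, 85.4, 103 and 129 CPM. Prnp, the prion protein, had 81.7, 116, 172, 199.6 and 304 CPM. Thy1, a GPI-anchored protein found on T cells and neurons, had 11.5, 28.7, 50.5, 97.7 and 105 CPM. Without the cells with T, NK or B cell transcripts, Thy1 still had 10.9, 26.8, 50.2, 93.4 and 101 CPM.

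Other genes ran against the tag. Ccl5, a chemokine that draws T cells and monocytes, had 6682, 5912, 4213, 2514 and 1537 CPM from the lowest band to the highest. Rbpj, the transcription factor through which Notch receptors act, had 223, 199, 111, 94.1 and 60.1 CPM. Slamf1, a surface receptor of activated lymphocytes and dendritic cells, had 155, 161, 88.8, 52.1 and 34.6 CPM. Cd9, a tetraspanin, had 208, 173, 118, 96.3 and 74.2 CPM.

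The make-up of the bands moved with the tag, since RFP+ cells were 24.2%, 31.4%, 42.3%, 51.3% and 53.1% of the cells from the lowest band to the highest. The bands were therefore also set out within each reporter state. Rbpj had 183 CPM in the lowest band and 56.9 in the highest among RFP+ cells, and 237 and 63.8 among RFP- cells. Ccl5 had 5540.2 and 1197 CPM at these ends among RFP+ cells, and 7059 and 1924 among RFP- cells. H2-DMa had 165 and 458 CPM among RFP+ cells and 165 and 464 among RFP- cells. Dkk2 had 29.4 and 223 CPM among RFP+ cells, with its highest value of 238 in the middle band, and 50.1 and 243 among RFP- cells. The difference between both ends was thus present in RFP+ and in RFP- cells for these 4 genes. Depth moved with the tag too, with medians of 11833.5, 13195.5, 14418.5, 15398 and 17955 mRNA UMIs from the lowest band to the highest. The tag was not scaled for depth in the bands, and the part of depth in their differences was not tested.

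**Figure D2:**
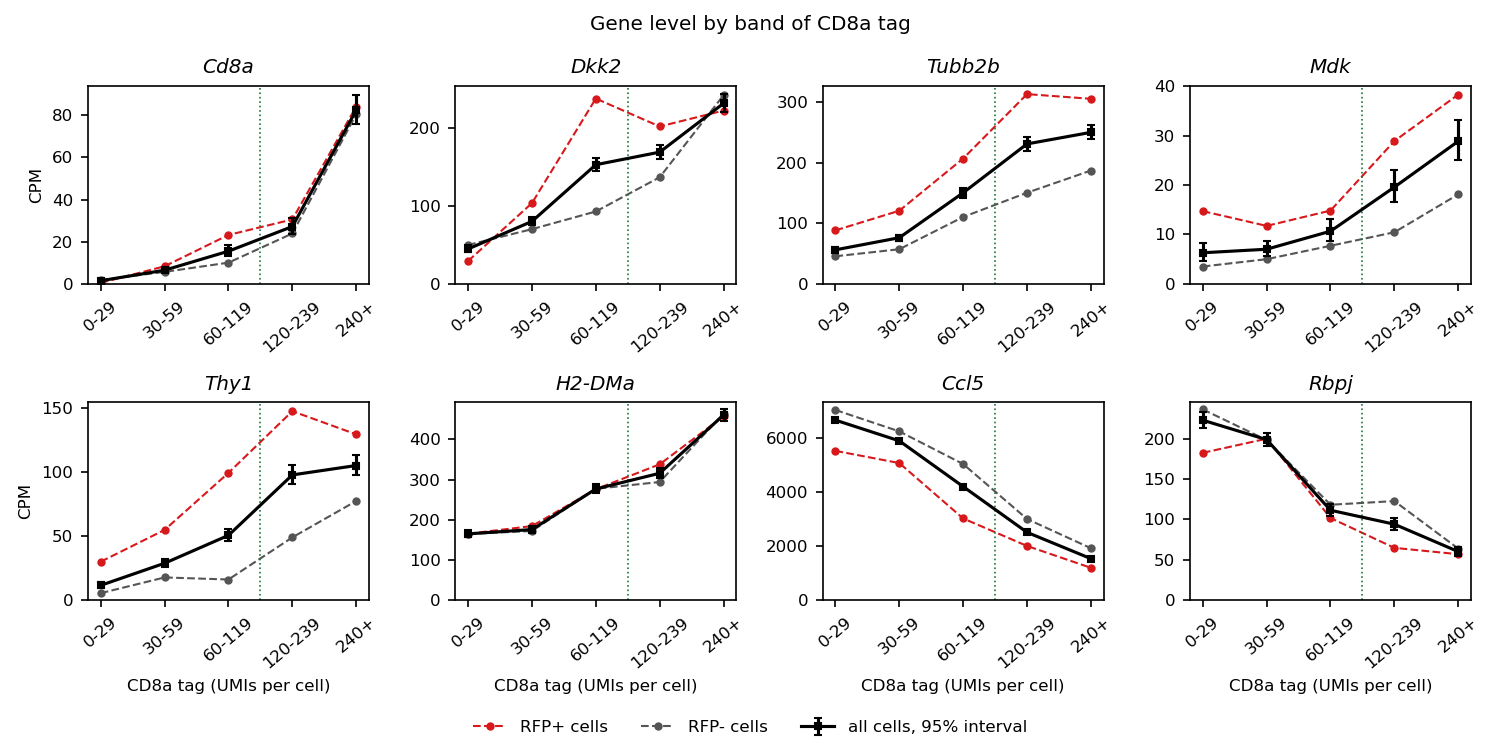
Level of 8 genes (CPM, linear axis from 0) by band of CD8a tag UMIs per cell, for cells that met the rest of the rule. Black squares are all cells with 95% Poisson intervals, red and grey circles are RFP+ and RFP- cells, and the green dotted line is the member threshold of 120; Cd8a reached 82.4 CPM in the highest band while Ccl5 came down to 1537.

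Across all genes, members differed little from the other kept cells. A gene was counted where it had 500 or more UMIs and no more than 20% of them in its top 5 cells, which left 8124 genes. Of these, 14 (0.172%) were at least 2-fold higher in members and 185 (2.28%) at least 2-fold lower. The median log2 ratio was -0.07. The same sign was found in all 4 populations for 10 of the 14 higher and 177 of the 185 lower genes. When cells with T, NK, B or C1q transcripts were left out on both sides, 14 genes (0.172%) were higher and 128 (1.58%) lower. When they were left out of the other kept cells alone, 44 genes (0.542%) were higher and 95 (1.17%) lower. Since the members were chosen on measured values in these cells, the ratios are descriptions. The counts of every gene list below stand beside the shares of 0.172% higher and 2.28% lower over all genes.

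Cd8a led the genes that were higher in members, with 54.3 CPM (50.6 to 58.3) against 19.7 in other kept cells, a log2 ratio of 1.46 (1.33 to 1.59). Within the 4 populations the ratio was 0.90, 1.18, 1.34 and 2.52. Without T, NK, B and C1q cells on both sides it was 1.83. At 5000 UMIs Cd8a was seen in 16.0% of members and 6.04% of other kept cells, against 32.3% of T and NK-like and 1.75% of B-like barcodes. Most members, chosen for the protein tag, had no Cd8a UMI at this depth.

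Other genes were named as higher by their ratio and the same sign in all 4 populations. Beyond the 5 markers, those at least 2-fold higher included Egfl6, Ctnnal1, Fat3, Adgrl1, Ldb2 and Nrgn. Egfl6, an extracellular matrix protein with EGF repeats, had 15.8 CPM in members and 6.72 in other kept cells, a log2 ratio of 1.23. Ctnnal1, alpha-catulin, had 12.4 CPM against 5.42. Cgnl1, the junction protein paracingulin, had 12.4 CPM against 6.88, a log2 ratio of 0.86 that is under 2-fold. Fat3, an atypical cadherin, had 36.8 CPM against 13.4, but 5 members held 39.7% of its UMIs in members. Adgrl1, the adhesion receptor latrophilin 1, had 12.6 CPM against 5.71. Ldb2, a cofactor of LIM-domain transcription factors, had 14.6 CPM against 6.59. Egfl6, Ctnnal1, Cgnl1, Fat3, Adgrl1 and Ldb2 were higher in members within all 4 populations, by log2 0.10 to 2.80. Not all were particular to members. In cells with a CD8a tag from 60 to below 120 that met the rest of the rule, Egfl6 had 14.9 CPM and Ldb2 14.4, close to members. Ctnnal1, Cgnl1, Fat3 and Adgrl1 were lower in those cells than in members, at 3.48, 7.88, 8.11 and 5.79 CPM.

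Nrgn, the calmodulin-binding protein neurogranin of neurons, had 31.5 CPM in members and 15.4 in other kept cells, a log2 ratio of 1.04. Prnp had a log2 ratio of 0.68 and Gria3, a glutamate receptor subunit, one of 0.36. Thy1 had 101 CPM in members and 56.6 in other kept cells, a log2 ratio of 0.84, and was higher within each population, by 0.27 to 1.83.

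**Figure D3:**
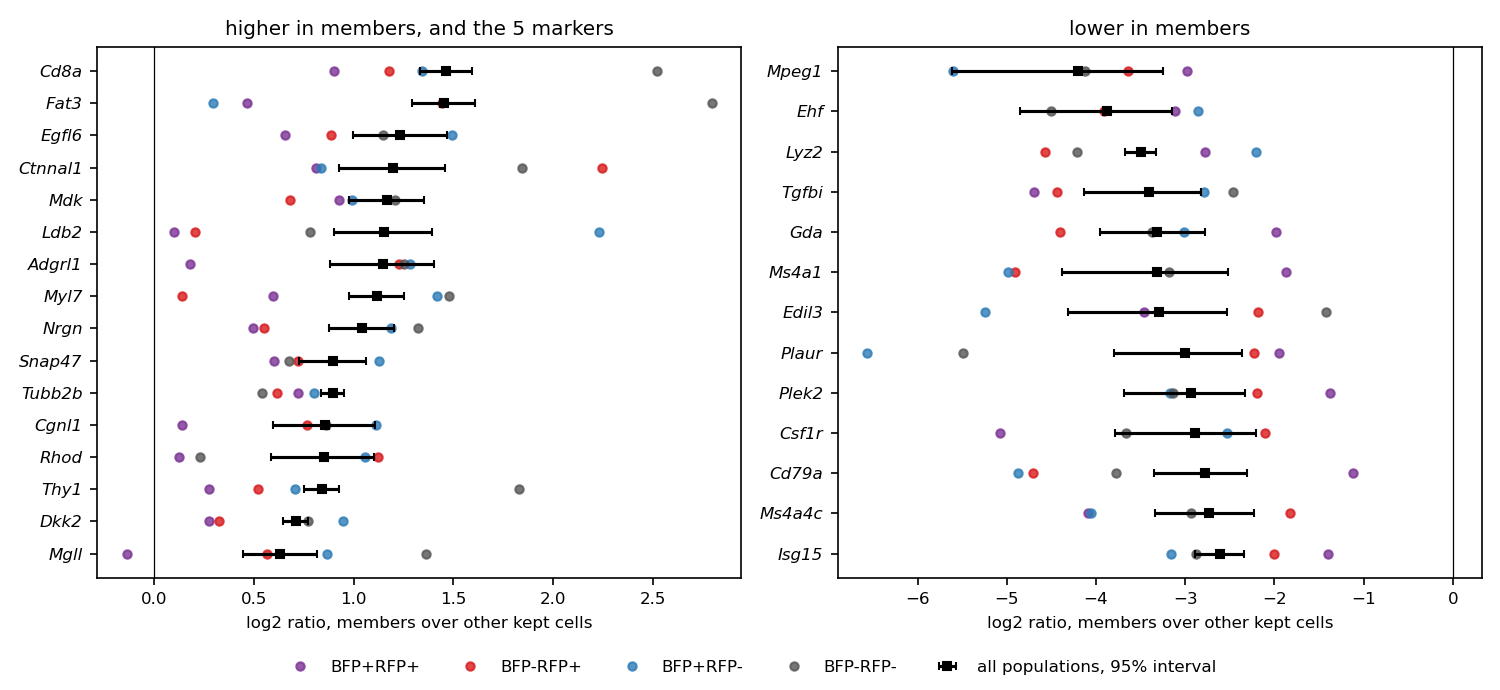
Log2 ratio of members over other kept cells for genes named as higher together with the 5 markers (left) and genes named as lower (right). Black squares with 95% intervals are the pooled ratio and coloured points the ratio within each sorted population; Cd8a is at 1.46 and Mpeg1 at -4.20.

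The genes that were much lower in members included those of macrophages and monocytes. Mpeg1, the pore-forming protein perforin-2 of phagocytes, had 0.494 CPM in members and 9.73 in other kept cells, a log2 ratio of -4.20. Lyz2, lysozyme, had 19.1 CPM against 215, a log2 ratio of -3.49. Csf1r, the receptor for the macrophage growth factor, had 1.06 CPM against 8.12. Tgfbi, a secreted matrix protein, had 1.48 CPM against 16.1. The limit on C1q in the rule removed macrophage-like cells from members only. Without T, NK, B and C1q cells on both sides, the log2 ratio was -3.67 for Mpeg1, -2.31 for Lyz2, -1.82 for Csf1r and -2.40 for Tgfbi. The CD11b limit also applied to members only, and that comparison kept other cells with a CD11b tag of 150 or more. The CD8a bands hold only cells that met both limits. There Lyz2 had 23.8, 17.9, 18.2, 21.5 and 16.5 CPM from the lowest band to the highest. Mpeg1 had 5.80, 3.17, 3.36, 0.555 and 0.431 CPM. The part of the CD11b limit in these ratios was not tested.

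Ehf, an epithelial ETS transcription factor, had 0.917 CPM in members and 14.0 in other kept cells, a log2 ratio of -3.88. Gda, guanine deaminase, had 1.83 CPM against 18.6, and Plek2, pleckstrin 2, 1.41 against 11.0. Plaur, the urokinase receptor, had 1.27 CPM against 10.4. These 4 genes were also lower without T, NK, B and C1q cells on both sides, at -3.86, -3.24, -2.99 and -2.68. Isg15, an interferon-induced ubiquitin-like protein, had 8.04 CPM in members and 49.2 in other kept cells, a log2 ratio of -2.61. Of 15 monocyte and macrophage markers 6 passed, 3 of them at least 2-fold lower in members and none higher, with a median of -1.17, or -1.06 without those cells on both sides. By contrast, Cd79a, a chain of the B cell receptor complex, had 2.33 CPM against 16.3, a log2 ratio of -2.78 that was 0.16 without those cells.

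Dendritic cell markers were set out for members against the other 4226 kept cells, 3871 of which were counted as dendritic cells. Both sides came from the same gate, so similar levels cannot test the identity of the members. Of 20 genes of migratory dendritic cells, all passed the filter, 2 were at least 2-fold lower, none was higher, and the median was 0.00. Ccr7 had 1328 CPM in members and 1445 in other kept cells, and Fscn1, the actin-bundling protein fascin of mature dendritic cells, 2245 against 2144. Flt3, the growth factor receptor of dendritic cells, had 361 CPM against 381, and Zbtb46, a transcription factor of conventional dendritic cells, 203 against 215.

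The members did not show the transcripts that define cDC1. Among 14170758 mRNA UMIs, Xcr1 had 1, Clec9a 0, Tlr3 1 and Cd36 1 (0 UMIs allow up to 3). Irf8, on which cDC1 depend, had 57.9 CPM in members and 118 in other kept cells, a log2 ratio of -1.03, while Batf3 was close at 360.0 against 336. Of the 12 cDC1 markers, 6 passed the filter, with Cd8a at least 2-fold higher, Irf8 lower and a median of -0.11. XCR1+ cells had been left out by the gate in all populations.

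Of 15 cDC2 markers 7 passed, with none at least 2-fold higher, 2 lower and a median of -0.66. Of these, 5 of 7 lay below 0, against 5263 of 8124 over all genes. Csf1r, given above with the macrophage genes, was among the lower ones, at -2.89. Without T, NK, B and C1q cells on both sides, 2 were still lower and the median was -0.58. The CD172a, CD11b and C1q limits of the rule applied to members only, and their part in these ratios was not tested. The summed level of the list was 3869 CPM in members and 3667 CPM in other kept cells, most of it S100a4, a calcium-binding protein, whose log2 ratio was 0.16. Sirpa, which encodes CD172a, had 59.3 CPM in members and 93.8 in other kept cells, a log2 ratio of -0.66, and Klf4, a transcription factor of a cDC2 subset, 23.8 against 40.3. Irf4, on which migration of cDC2 depends, was close at 123 against 111. Itgam mRNA was scarcely seen, with 2 UMIs in members and 3.69 CPM in CD11b-tag-high cells.

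Of 13 plasmacytoid dendritic cell markers, 6 passed, with none past 2-fold either way, 4 above 0, 2 below 0 and a median of 0.27. Over all genes, 2861 of 8124 lay above 0 and the median was -0.07. Atp1b1, a sodium pump subunit, was at 0.75, Spib at 0.40, Runx2 at 0.35 and Tcf4 at 0.20, the last 3 being transcription factors. The other two were Bst2, the antiviral protein tetherin, at -0.05 (-0.13 to 0.03, and above 0 under TMM scaling of the libraries), and Ptprcap, a protein that associates with CD45, at -0.97, or 0.44 without T, NK, B and C1q cells on both sides. Siglech itself had 6 UMIs in members. The summed level of the list was 1252, 1194, 950 and 885 CPM in members of the 4 populations. In other kept cells it was 1302, 1039, 881 and 717 CPM. It was 1081 CPM over all members, against 1576 in cells with the same tags and C1q limit but at least 5 Tnfsf4 UMIs. Of 12 markers of transitional dendritic cells, a population between plasmacytoid and conventional ones, 6 passed, with 1 at least 2-fold higher, 1 lower and a median of 0.08. The higher one was Cd8a, the gene of the tag by which members were chosen. Tcf4 and Runx2 are on this list as well as on the plasmacytoid one. The RFP transcript, tdRFP, had 26.7, 25.8, 0 and 0.514 CPM in members of the 4 populations. BFP mRNA had 30.7, 5.89, 25.2 and 3.09 CPM, so both transcripts were higher in the members whose hashtag stood for that reporter.

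T cells carry CD8a, so their transcripts were set out for the members. The CD172a limit of 30 applied to members only, and T and NK-like barcodes had a median CD172a tag of 15. The rule thus left many such barcodes among the other kept cells, and the ratios to those cells cannot test for T cells among members. Of 16 T and NK cell markers, 10 passed, 8 were at least 2-fold lower in members, none was higher, and the median was -1.39, or -0.01 without T, NK, B and C1q cells on both sides. The summed level was 303, 228, 301 and 197 CPM in members of the 4 populations, against 350.1, 376, 351 and 259 in other kept cells and 3405 in T and NK-like barcodes. Ncr1 and Klrb1c had 0 UMIs in members. Most of the sum in members was Tcf7, a transcription factor of T cells that also acts in Wnt signalling, with 201 CPM against 139 in other kept cells. Cd3d had 7.48 CPM against 23.8, and Trac 8.19 against 21.3. Of the members, 11 held at least 5 UMIs of Cd3d, Cd3e, Cd3g and Nkg7, and 2 at least 5 UMIs of B cell genes.

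Of 13 genes of antigen presentation on MHC class II, all passed the filter and none was past 2-fold either way. The median was 0.37, against -0.07 over all genes, and 12 of 13 lay above 0, against 2861 of 8124. H2-DMa had 387 CPM in members and 241 in other kept cells, a log2 ratio of 0.68, and was higher within each population, by 0.24, 0.69, 0.84 and 0.62. H2-DMb2, the other chain of DM, had 327 CPM against 206, and H2-Oa, a chain of DO, which restrains DM, 136 against 93.0. The MHC chains H2-Aa and H2-Eb1 had 6416 and 5175 CPM in members, against 4979 and 3978 in other kept cells. Ciita, their transcriptional activator, had 141 CPM against 105. Ctss, the protease cathepsin S, was the exception at -0.12. MHC class I genes showed no such shift, with 15 of 15 passing, none past 2-fold and a median of -0.02.

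Of 23 costimulatory genes 17 passed, with none at least 2-fold higher, 2 lower and a median of 0.05. Over all genes, 0.172% were at least 2-fold higher and 2.28% lower. Icosl had 116 CPM in members and 68.8 in other kept cells, a log2 ratio of 0.75, and was higher in all 4 populations, by 0.49 to 0.82. Cd200, an inhibitory ligand, was at 0.39. Cd80 and Cd86, the ligands of CD28, were close, at 0.05 and -0.10. Slamf1 had 43.5 CPM against 92.6, a log2 ratio of -1.09, and Vsir, the inhibitory protein VISTA, 4.45 against 11.2.

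Over all genes that passed, 2.28% were at least 2-fold lower and 5263 of 8124 lay below 0, and the lists of secreted mediators are given against these shares. Of 14 chemokines 7 passed: none was at least 2-fold higher, 2 were lower, all 7 lay below 0 and the median was -0.52. Ccl5 had 2034 CPM in members and 4209.8 in other kept cells, a log2 ratio of -1.05, with -0.66, -1.18, -1.01 and -0.82 within the 4 populations. Ccl22, a ligand of CCR4, was close at 1801 against 1984. Ccl17, which binds the same receptor, had 364 against 402, yet its ratio was 1.28 in BFP-RFP- cells and -0.42 to -0.63 in the others.

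Of 20 cytokines 9 passed, with none at least 2-fold higher, 1 lower, 7 of 9 below 0 and a median of -0.68. Ebi3, a subunit of IL-27 and IL-35, at 0.25 and Il6 at 0.21 (-0.01 to 0.43) lay above 0. Il1b had 76.1 CPM in members and 171 in other kept cells, a log2 ratio of -1.17. Il12b, a subunit of IL-12 and IL-23, had 33.9 against 58.3. Of 16 prostaglandin and leukotriene genes 7 passed, 3 were at least 2-fold lower, none higher, and the median was -0.91. They were Ptgs2, the inducible cyclooxygenase, at -1.20, Ltc4s, leukotriene C4 synthase, at -1.05, and Alox5ap, the activator of 5-lipoxygenase, at -1.01. All 7 lay below 0.

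Of 18 Notch genes 7 passed, none higher, 1 lower, with a median of -0.28. Rbpj was the lower one, with 77.4 CPM in members and 167 in other kept cells, a log2 ratio of -1.11, and was lower within each population, by log2 ratios of -0.73, -1.33, -0.98 and -0.94. Of 39 Wnt genes 16 passed, none higher, 2 lower, with a median of -0.16. Dkk2 at 0.71 and Tcf7 at 0.53 were the highest of that list. Among cytokine receptors 23 of 26 passed, none higher and 3 lower, with a median of -0.15. Il9r, the interleukin 9 receptor, at 0.77 and Il1r1 at 0.58 were the highest, and Il18r1 at -1.83 was among the lower ones. Of 17 genes of the type I interferon response 7 passed, none higher and 2 lower, with a median of -0.15. Of 14 dissociation stress genes all passed, with none past 2-fold and a median of -0.41.

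**Figure D4:**
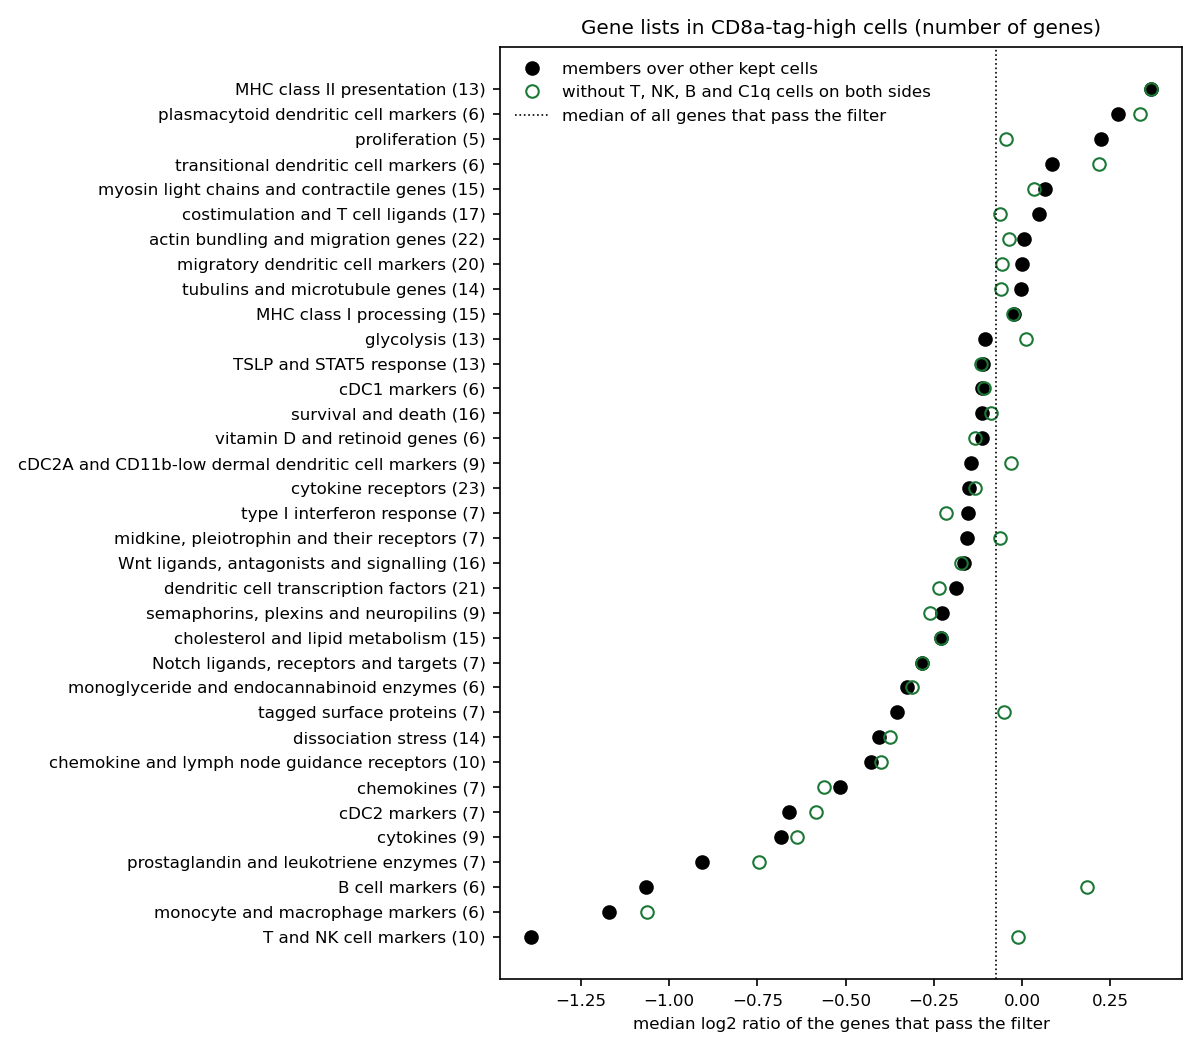
Median log2 ratio of members over other kept cells for each list with at least 5 genes that passed the filter (number in brackets), for all kept cells (black) and without T, NK, B and C1q cells on both sides (green). The dotted line is the median of all genes, -0.07; MHC class II presentation is highest at 0.37 and T and NK cell markers lowest at -1.39.

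Members had other members among their nearest cells in mRNA space more often than other kept cells did. Over 30 principal components made without Tnfsf4, the C1q genes, the reporters and the genes of the tagged proteins, 32.7% of the 15 nearest neighbours of members were members. Members were 15.8% of kept cells, and 13.5% of the neighbours of other kept cells were members. The share was 41.0% for BFP+RFP+ members, 29.5% for BFP-RFP+, 32.0% for BFP+RFP- and 23.4% for BFP-RFP- members. It was lower than in cells with a CD11b tag of 150 or more, 54.5% of whose neighbours were of their own kind, and these cells make up 24.3% of kept cells. Among members, 4.79% had no other member among their 15 neighbours.

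The cells most like them were the 186 with the same tags and C1q limit but at least 5 Tnfsf4 UMIs. Of the neighbours of those cells, 27.4% were members. They were deeper, with a median of 22445.5 UMIs, against 16447 in members, and the part of this depth in the differences was not tested. Of 8124 genes, 133 (1.64%) were at least 2-fold higher in members than in them and 93 (1.14%) lower. Dkk2 had 200.3 CPM in members and 294 in the Tnfsf4-rich cells, and Myl7 44.6 against 89.5. Nrgn had 31.5 against 68.1 and Thy1 101 against 194, whereas Mdk and Tubb2b were closer, at 24.1 against 25.6 and 240.2 against 262. Cd9 was higher in members, at 85.5 against 23.0 CPM, and so was Ccl5, at 2034 against 877. The summed level of the 13 MHC class II genes was 31315 CPM in members and 32740 in the Tnfsf4-rich cells, so it was not particular to members.

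Against 1218 cells with a high CD11b tag, 49 genes (0.603%) were at least 2-fold higher in members and 217 (2.67%) lower. Egfl6 had 15.8 CPM in members and 3.44 in those cells, and H2-Oa 136 against 59.4. Il1b had 76.1 against 244. Against 538 cells with a high CD301b tag and a CD8a tag below 120, 190 genes (2.34%) were higher in members and 151 (1.86%) lower. Tubb2b had 240.2 CPM in members and 43.5 in those cells, Nrgn 31.5 against 2.45 and Myl7 44.6 against 3.55. Differences in the markers were thus larger against CD301b-tag-high cells, with log2 ratios of 0.80 to 3.63, than against CD11b-tag-high cells, at 0.79 to 1.89, for 4 of the 5, with Mgll as the exception.

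Among members, the reporters went with further differences, each taken within both states of the other reporter. Here 5869 genes had 200 or more UMIs in members and no more than 20% of them in 5 cells. BFP+ over BFP- gave 11 (0.187%) at least 2-fold higher and 67 (1.14%) lower within RFP+, and 31 (0.528%) higher and 51 (0.869%) lower within RFP-. RFP+ over RFP- gave 11 (0.187%) higher and 28 (0.477%) lower within BFP+, and 33 (0.562%) higher and 29 (0.494%) lower within BFP-. These were counts between 1 sample and another, with 107 to 273 cells each.

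Tubb2b and Nrgn were higher with both reporters. Tubb2b had 400 CPM in BFP+RFP+ members, 214 in BFP-RFP+, 194 in BFP+RFP- and 99.8 in BFP-RFP- members, and the intervals overlapped only between the middle pair. Nrgn had 58.5, 31.4, 20.4 and 8.75 CPM in the same order. Plxna4, a semaphorin receptor, followed BFP, with 191 and 133 CPM in BFP+RFP+ and BFP+RFP- members against 69.9 and 46.8 in BFP-RFP+ and BFP-RFP- members. H2-Oa had 203 and 139 CPM in BFP+RFP+ and BFP+RFP- members against 101 and 67.4 in BFP-RFP+ and BFP-RFP- members. The summed level of the 13 MHC class II genes was 35785 and 33451 CPM in these BFP+ members against 28262 and 22942 in the BFP- members. Tnfsf4, although limited in all members, was at 52.6 and 42.0 CPM in the BFP+ members against 18.0 and 17.5 in the BFP- members.

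Sirpa mRNA was lower in BFP+ members, and so was its protein tag. Sirpa had 27.5 CPM (22.4 to 33.4) in BFP+RFP+ members against 97.1 (87.1 to 108) in BFP-RFP+ members, a log2 ratio of -1.82. It had 36.3 CPM (31.2 to 42.1) in BFP+RFP- members against 109 (94.9 to 125) in BFP-RFP- members, a log2 ratio of -1.58. The median CD172a tag was 63 in BFP+RFP+ members against 94.5 in BFP-RFP+ members, and 84 in BFP+RFP- members against 191 in BFP-RFP- members, all above the limit of 30. In other kept cells the tag medians were 64 against 101.5 and 93 against 123 in the same pairs.

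Cd9 had 23.4 and 65.6 CPM in BFP+RFP+ and BFP+RFP- members against 122 and 188 in BFP-RFP+ and BFP-RFP- members. Adam19, a membrane metalloprotease, was lower with both reporters, at 26.7 CPM in BFP+RFP+ members, 72.9 in BFP-RFP+, 70.3 in BFP+RFP- and 209 in BFP-RFP- members. Il1b had 32.9 and 44.0 CPM in the BFP+ members against 141 and 121 in the BFP- members. Ccl17 had 197 and 271 CPM in the BFP+ members against 371 and 904 in the BFP- members. BFP-RFP- members also had the highest medians of the CD172a and CD301b tags, 191 and 48.

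Thy1 followed RFP rather than BFP, with 136 and 141 CPM in BFP+RFP+ and BFP-RFP+ members against 59.6 and 69.5 in BFP+RFP- and BFP-RFP- members. Ccnd1, the cell cycle regulator cyclin D1, had 122 and 146 CPM in the RFP+ members against 62.2 and 68.4 in the RFP- members. Itgb7, an integrin subunit of lymphocyte homing, had 23.4 and 16.3 CPM against 11.5 and 7.72. Spib had 51.2 and 53.0 CPM in RFP+ members against 30.9 and 29.8 in RFP- members. Genes lower with RFP were Cdk14, a kinase, with 13.5 and 31.1 CPM in RFP+ members against 35.5 and 62.2 in RFP- members, and Aif1, a calcium-binding protein of macrophages, with 20.2 and 19.6 against 41.8 and 38.1. Mx1, an interferon-induced antiviral protein, had 8.08 and 13.5 CPM in RFP+ members against 19.4 and 24.7 in RFP- members.

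**Figure D5:**
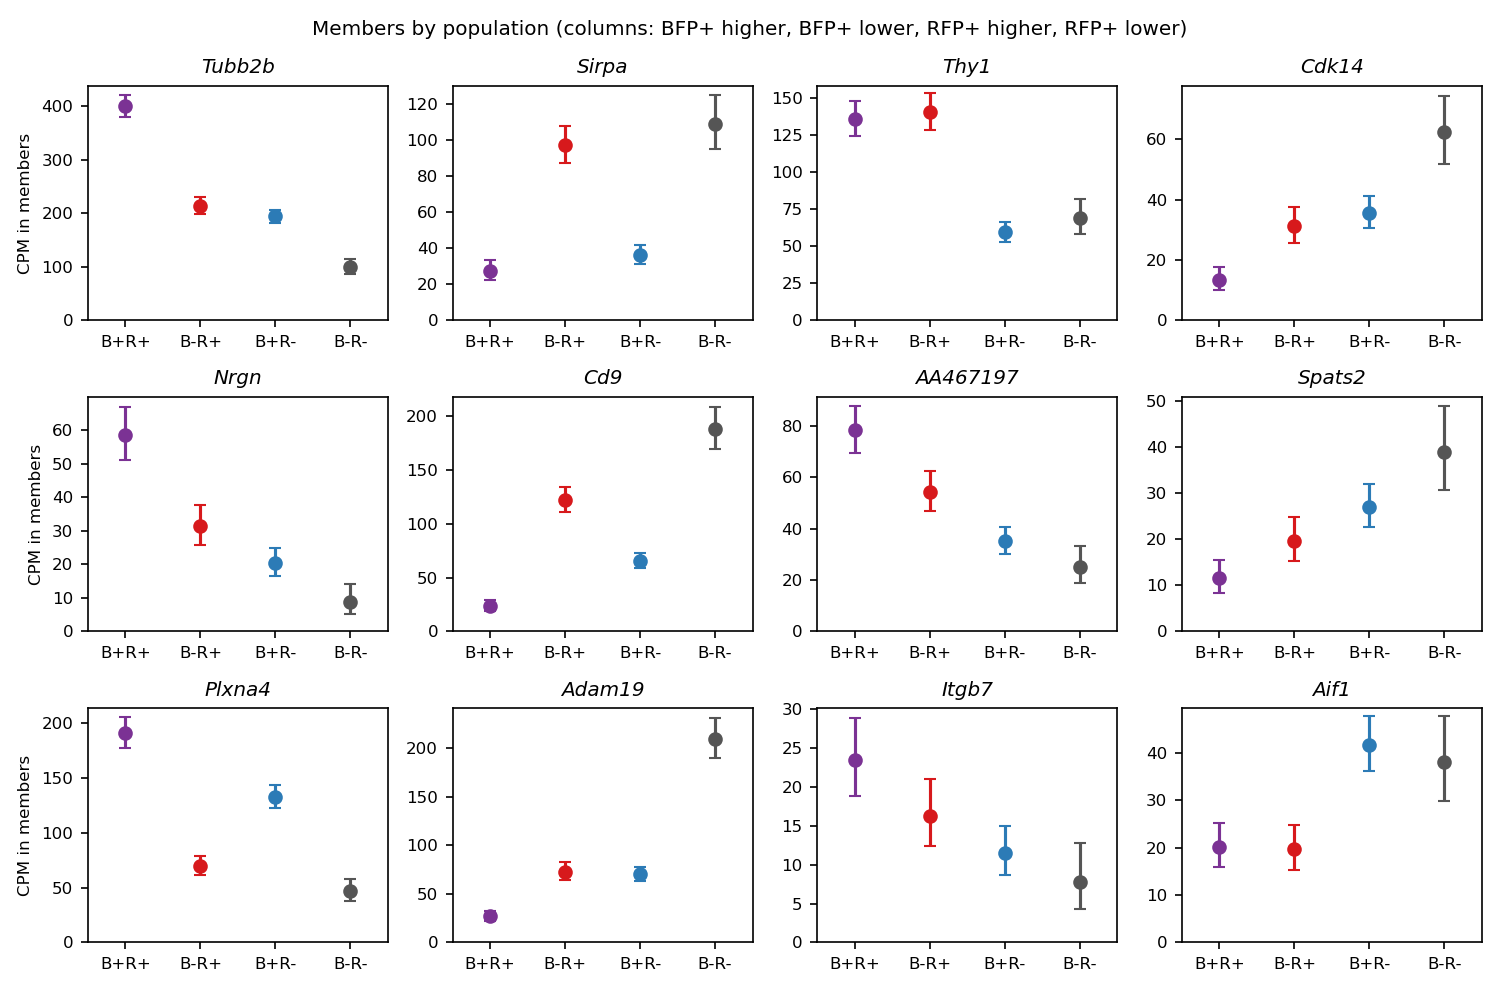
Level in members (CPM, linear axis from 0, with 95% Poisson intervals) of 12 genes in the 4 sorted populations, where B and R stand for BFP and RFP. Columns show 3 genes each that were higher with BFP, lower with BFP, higher with RFP and lower with RFP; Tubb2b runs from 400 CPM in BFP+RFP+ to 99.8 in BFP-RFP- members and Sirpa is below 40 in both BFP+ groups.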

How the data were processed

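The authors deposited raw UMI counts in 1 matrix that joins the mRNA, tag and hashtag libraries of the pool: 22548 genes plus 4 antibody tags and 4 hashtags, over the same 6079 barcodes. Per the file headers the matrix comes from Cell Ranger 7.0.0. The build GRCm39 (mm39) is taken from the submitters' processing notes. How barcodes were called as cells was not stated in these sources. The labels list the CD172a and CD301b antibodies under other TotalSeq formats than the rest.

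Kept cells had 1 hashtag with at least 80% of hashtag UMIs, 500 or more genes, 1000 or more mRNA UMIs and no more than 10% mitochondrial UMIs. Tags entered no mRNA total. Doublets within a population were not removed and no doublet caller was run. Members, marker genes and gene lists were chosen with earlier results of these data known. UMIs were summed over cells, with Poisson intervals for levels, Clopper-Pearson intervals for shares and conditional binomial intervals for log2 ratios (pseudocount 0.5 UMI). Genes needed at least 500 UMIs over kept cells (200 among members), with at most 20% in the top 5 cells. Named genes were the 5 markers, the 14 with the largest ratio per direction and the same sign in all populations, the 8 per reporter and direction with the largest smaller ratio, up to 4 of each list, and genes of the rule and tags. List genes beyond these 4, and genes set out by CD8a tag band, were chosen after their values were seen. High CD301b was a tag of at least 57, the 75th percentile. T and NK-like and B-like barcodes held at least 5 UMIs of Cd3d, Cd3e, Cd3g and Nkg7 or of a short list of B cell genes that includes Cd79a, Cd79b and Ms4a1. Some genes that met the naming rule are not reported here. Python 3.11.15, scanpy 1.11.5, scipy 1.17.1 and edgeR 4.0.16 (for TMM factors only) were used, and the ratio was tested on simulated data.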

Additional observations from a re-analysis of the deposited data

Results flagged for a closer look

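Of the genes given with a ratio, 4 went one way in members of 1 population and the other way in members of another, each ratio having a counting interval on its own side of 0. The difference was not tested for any of them, since each population is 1 sample. The log2 ratio of BFP mRNA, members over other kept cells, was 0.71 within the BFP+RFP- population, against -0.55 within the BFP+RFP+ population. Ccl17, a chemokine of migratory dendritic cells, had a ratio of 1.28 within the BFP-RFP- population, against -0.63 within BFP+RFP-. Il6, a cytokine, had 0.52 within BFP+RFP- cells, against -0.65 among those of BFP+RFP+. Mgl2, the gene of the tagged protein CD301b, had 1.40 within BFP-RFP-, against -1.26 within BFP+RFP+, and 5 members held 51.8% of its 272 UMIs in members.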

How the results depend on the processing

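No paired analysis was possible because the sorted populations have no replicates. The depth of 14170758 UMIs in members limits genes of a few CPM, and the intervals cover counting error only. Over the alternatives run, 8 to 14 of the 14 genes higher and 92 to 185 of the 185 lower in members were shared. The fewest were 8 higher with the mean of the ratios within populations, and 92 lower with only the other kept cells limited to dendritic cells. Without T, NK, B and C1q cells on both sides, a comparison added after the data were seen, 13 and 122 were shared.

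The count of genes at least 2-fold higher, 14, was 24 with each cell given the same weight, 23 after thinning, 44 with only the other kept cells limited to dendritic cells, 29 when as many members were taken by the CD8a share of tag UMIs, 34 at a filter of 100 UMIs and 966 with no filter. The count of genes lower, 185, was 95, 416 and 1670 with the limit to dendritic cells, the filter of 100 UMIs and no filter. In the order of the 4 populations, the shares of members were 31.9%, 25.1%, 16.8% and 13.5% at a CD8a threshold of 90, and 18.5%, 12.9%, 8.01% and 6.32% at 180. By the CD8a share of tag UMIs 31.9% of BFP+RFP+ cells were members, against 16.8% of BFP-RFP+ and only 6.13% of BFP-RFP- cells. Without the Tnfsf4 limit they were 37.3% in BFP+RFP+ and 15.4% in BFP+RFP- cells. The order of the populations held at both thresholds.

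Genes past 2-fold between reporter states in members, 78 and 82 for BFP within RFP+ and RFP- and 39 and 62 for RFP within BFP+ and BFP-, were 141, 158, 75 and 155 at a filter of 100 UMIs and 2975, 3251, 2803 and 2295 with none. Without the Tnfsf4 limit BFP within RFP+ gave 47 and RFP within BFP+ 23, and with equal weights RFP within BFP- gave 111. With 15 principal components, 31.6% of members' neighbours were members.

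Some ratios of members over other kept cells changed sign. With only the other kept cells limited to dendritic cells, Cd3d was at 0.81, Cd79a at 1.66, Cd8b1 at 1.28, Ptprcap at 1.14, Trac at 0.61, Cd80 at -0.019 and Fscn1 at -0.0060. With the limit on both sides, Cd79a was at 0.16, Cd8b1 at 0.19, Ptprcap at 0.44, Trac at 0.045 and Cd80 at -0.010. By the CD8a share of tag UMIs, Cd80 was at -0.021, Fscn1 at -0.069 and Irf4 at -0.00498. Under TMM scaling Flt3 was at 0.00904 and Zbtb46 at 0.00446. As the mean of the ratios within populations, tdRFP was at -0.085. Except where cells were left out by construction, the cause was not tested.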
